A study of Xenopus laevis with 46 samples.

Results

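The ventx and msx genes were followed here as the homeobox repressors that act for ventral fate in the Xenopus laevis blastula and gastrula. Members were the rows whose human match was VENTX, MSX1 or MSX2, or whose identifier began with ventx or msx, and which reached 1 RPKM (reads scaled to gene length and library depth) in at least 2 libraries. By name 15 of 43662 rows matched at stage 10.5 and 8 of 37005 at stage 9, and 8 and 6 of these passed. The 8 are 4 rows that carry a provisional identifier and the human match VENTX (Xelaev18034615m, Xelaev18034617m, Xelaev18036901m and Xelaev18036903m), and msx1.L, msx1.S, msx2.L and msx2.S. The L and S endings name the 2 copies that most genes of this allotetraploid frog keep. Rows named ventx1.1.L, ventx1.1.S, ventx1.2.L, ventx1.2.S, ventx3.1.S, ventx3.2.L and ventx3.2.S were listed at 0 in all 29 libraries of stage 10.5. The files do not say which named ventx gene each of the 4 VENTX matches is. RefSeq, in its table for assembly Xenopus_laevis_v10.1, lists 10 ventx genes, 5 on chromosome 7L and 5 on 7S. They lie side by side, in the order ventx3.2, ventx1.2, ventx2.2, ventx1.1, ventx2.1 on both, and on 7S 1 other gene lies between ventx1.2 and ventx2.2. The same table puts msx1 on 1L and 1S and msx2 on 3L and 3S. Nothing used here says how reads that match several ventx copies were counted, so the split of reads among the VENTX matches is uncertain.

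As background, BMP signals on the ventral and lateral sides of the frog gastrula switch on the ventx genes (also known as vent, vox, Xom, PV.1 and vex), whose proteins repress organizer genes such as goosecoid and chordin. Organizer factors in turn hold ventx transcription down, either directly or by blocking BMP with the secreted antagonists Chordin, Noggin and Cerberus. The msx genes are further BMP-induced homeobox repressors, first active in ventral and lateral ectoderm and mesoderm and later known for their part in the neural plate border and neural crest.

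RNA from Nasco-strain embryos was sequenced as poly(A)-selected libraries, 29 from early gastrulae (stage 10.5) and 17 from late blastulae (stage 9). The gastrula libraries were 6 uninjected whole-embryo controls, 3 libraries of embryos with a beta-catenin morpholino (bCatMO), 2 with lithium chloride (LiCl), which activates the Wnt pathway inside the cell, and 2 with siamois mRNA (Sia), an organizer homeobox activator downstream of maternal beta-catenin. A further 3 libraries came from embryos given xWnt8 mRNA (Wnt8) and 3 from embryos given xCer L mRNA (Cer), the secreted antagonist Cerberus. There were also 5 libraries of dorsal half-embryos and 5 of ventral half-embryos. Stage 9 had 5 controls, 2 libraries each of bCatMO, LiCl and Sia, and 3 each of Wnt8 and Cer. Morpholino and mRNAs were injected at the 2 to 4 cell stage (100 pg of sia mRNA, marginally), LiCl was given to embryos of 32 cells, and embryos were cut at stage 8 and their dorsal and ventral sides cultured apart to stage 10.5. The labels name for each treated library the control of its batch: controls 1 to 3 at stage 10.5 and 4 and 5 at stage 9 for bCatMO, LiCl and Sia, and controls 4 to 6 at stage 10.5 and 1 to 3 at stage 9 for Wnt8 and Cer. Treatments with the same controls are therefore not independent of each other. Nothing states how many embryos or which clutches made up a library, so the p-values measure the spread between these libraries. In whole embryos and half-embryos alike, fewer cells that express a gene and less of its RNA per cell cannot be told apart.

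Reads in genes ranged from 24.5 M to 45.0 M in gastrula libraries and 27.9 M to 58.5 M in blastula libraries, and the members drew between 15 and 11763 reads each. Cerberus (cer1.S) stood at 4247 to 5762 RPKM in the Cer libraries of stage 10.5 and 59.2 to 115 in controls. The siamois row Xelaev18019203m stood at 638 to 659.9 RPKM in Sia libraries, 5.95 to 22.3 in controls and 0.0487 to 0.287 in bCatMO libraries. In the libraries labelled Wnt8, wnt8a.L was not above the controls, at 26.4 to 55.9 RPKM against 43.6 to 102 at stage 10.5 and 12.7 to 23.6 against 6.81 to 27.0 at stage 9. These libraries are therefore called Wnt8-labelled throughout. The labels of Wnt8-labelled 1 and Cer 1 of stage 10.5 name stage 10 in 1 field. Half-embryo labels matched their markers: goosecoid (gsc.L) was at 114 to 176 RPKM in dorsal and 0.997 to 5.12 in ventral half-embryos, and the BMP target sizzled (szl.L) at 1.10 to 8.86 and 36.0 to 164. Control 1 of stage 10.5 stood apart, with the lowest VENTX level and the lowest sizzled level (10.9 RPKM) of the 6 controls. Leaving it out left the counts of members called in the bCatMO and LiCl comparisons unchanged at 0 and 5. The count of all rows called in LiCl went from 2668 to 1565. In bCatMO, with each library left out in turn, 490 to 1625 rows were called, against 1346. The treated libraries of the batch of control 1 were low too. The summed level of the VENTX matches was 551 RPKM in bCatMO 1 and 176 in LiCl 1, each the lowest of its group at stage 10.5.

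At stage 10.5 the VENTX matches were abundant transcripts and the msx rows were not. In controls, group means on the RPKM scale, which is per length, were 154 for Xelaev18034615m, 155 for Xelaev18034617m, 106 for Xelaev18036901m and 167 for Xelaev18036903m. Those of the msx rows were 16.4 for msx1.L, 20.2 for msx1.S, 2.86 for msx2.L and 2.87 for msx2.S. The summed level of the 4 VENTX matches ran from 782 to 1098 RPKM in ventral half-embryos, 551 to 718 in bCatMO libraries, 404 to 715 in controls and 434 to 652 in dorsal half-embryos. It was 176 to 287 in Cer, 176 to 274 in LiCl, 178 to 252 in Sia and 182 to 234 in Wnt8-labelled libraries. The 10 LiCl, Sia, Wnt8-labelled and Cer libraries thus lay below all 19 others. This split is a description that was not set in advance, and it pools batches and half-embryos, which have no batch control. How many of all rows separate the same libraries was not counted.

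The same gap was seen in each VENTX match. Xelaev18034615m ranged over 31.4 to 93.7 RPKM in those 10 libraries and 104 to 318 in the other 19, and Xelaev18034617m over 37.2 to 85.7 and 97.7 to 274. For Xelaev18036901m the ranges were 27.5 to 64.7 and 79.9 to 232, and for Xelaev18036903m 44.7 to 107 and 116 to 279. Dorsal half-embryos, which hold the organizer, thus kept more VENTX transcript than whole embryos with Sia, LiCl, Cerberus or the Wnt8 label. In the order of group means of Xelaev18034617m the only neighbours whose ranges did not overlap were dorsal half-embryos (105 to 174 RPKM) and Cer (45.5 to 85.7). For Xelaev18034615m and Xelaev18036901m the gap in the order was between bCatMO and Cer, and for Xelaev18036903m between dorsal half-embryos and Sia. No neighbouring groups were separated in the order of any msx row, and msx1.S covered 2.16 to 11.4 RPKM in the 10 libraries and 4.22 to 63.0 in the 19.

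**Figure D1:**
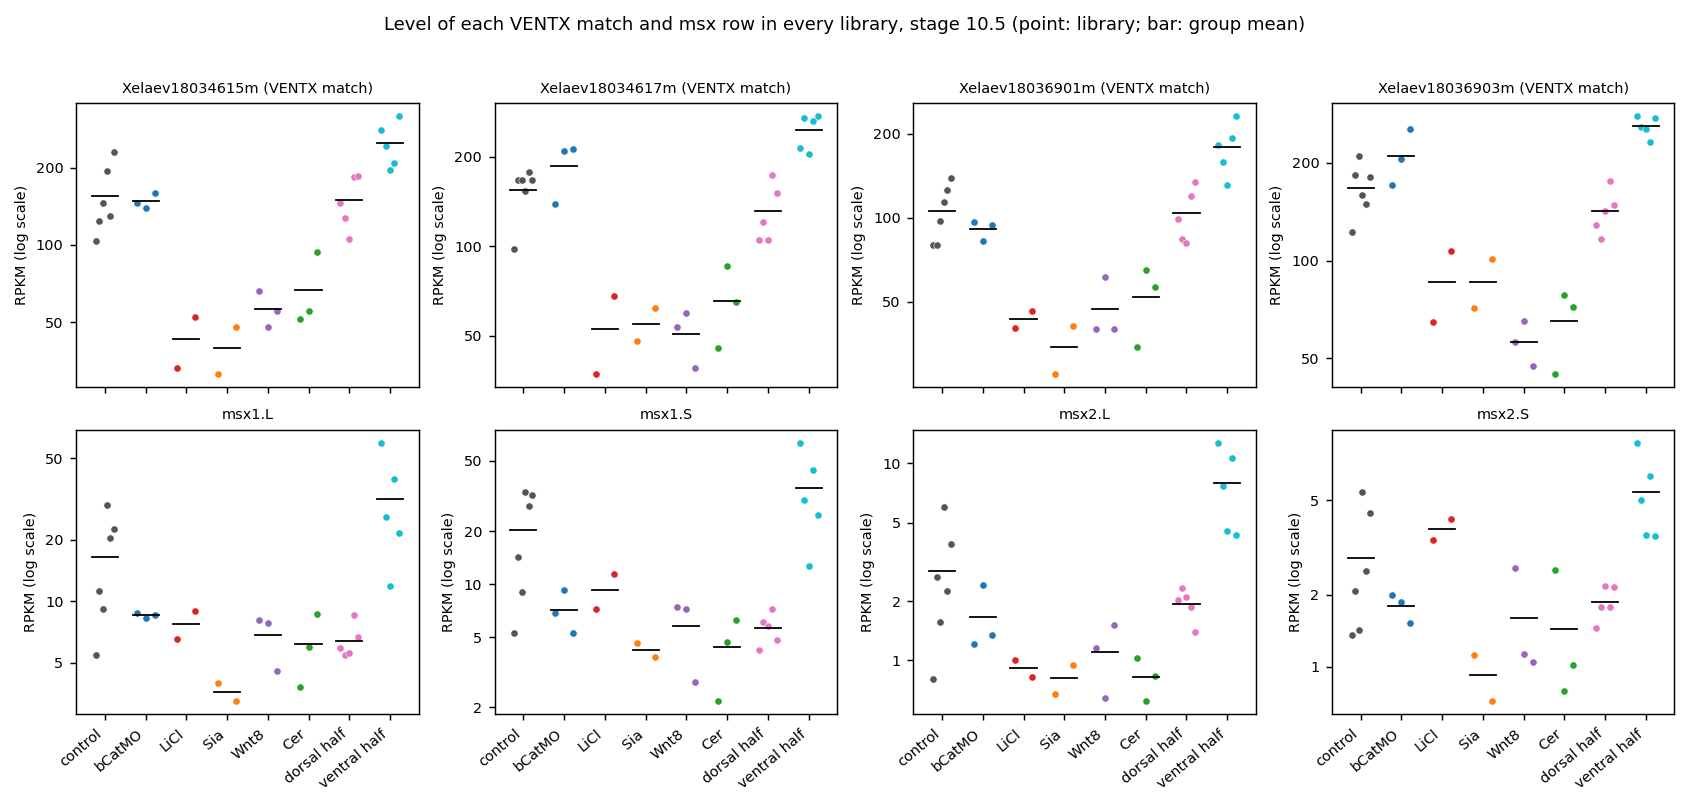
RPKM of each of the 8 rows in every library of stage 10.5, on a log axis, 1 panel per row; points are libraries, bars are group means, and Wnt8 stands for the Wnt8-labelled libraries. In the 4 VENTX panels all LiCl, Sia, Wnt8 and Cer points lie below all other points, and in the msx panels they do not.

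The half-embryos ask what levels the repressors reach on the side with the organizer and on the side without it, when these are cultured apart from stage 8. They do not show how the transcripts are divided within an intact gastrula. All 8 rows had lower means in dorsal than in ventral half-embryos. In the fit without a block on the pair number 6 were called lower, while 0.130% of the 18448 rows tested were called lower. Xelaev18034617m stood at 105, 120.3, 105, 174 and 151 RPKM in dorsal half-embryos 1 to 5 and 213, 269.8, 204, 263 and 274 in ventral half-embryos 1 to 5. Every ventral library was above every dorsal one, and the means were 131 ± 30.4 (SD, n = 5) and 245 ± 33.5 (SD, n = 5). The log2 fold change, dorsal over ventral on the log2(RPKM + 0.5) scale as in all comparisons below, was -0.92 ± 0.16 (SE; limma, adjusted p = 0.0204).

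Xelaev18036903m stood at 128, 116, 142, 175 and 148 RPKM in dorsal and 279, 257, 253, 231 and 274 in ventral half-embryos, again with no overlap, a log2 fold change of -0.87 ± 0.12 (limma, adjusted p = 0.00348). The remaining pair, Xelaev18034615m and Xelaev18036901m, were lower in all 5 dorsal half-embryos than in the ventral ones of the same number, at 106 to 185 against 195 to 318 RPKM and 81.4 to 134 against 130.5 to 232. The dorsal and ventral ranges of Xelaev18034615m did not overlap and those of Xelaev18036901m did. They were not called without a block on the pair number (log2 fold changes -0.74 ± 0.18 and -0.79 ± 0.18, limma adjusted p = 0.158 and 0.11), and were called with it (adjusted p = 0.0191 and 0.000628). The same-numbered half-embryos varied together, and with the block all 8 members were called lower, where 0.585% of rows were.

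The msx rows differed by more. msx1.S stood at 4.22, 6.12, 5.78, 7.25 and 4.82 RPKM in dorsal half-embryos and 63.0, 29.9, 12.6, 44.4 and 24.5 in ventral half-embryos. The lowest ventral value was above the highest dorsal value, and ventral half-embryos 1 was the highest and ventral half-embryos 3 the lowest of the ventral libraries. Its means were 5.64 ± 1.18 (SD, n = 5) and 34.9 ± 19.4 (SD, n = 5), a log2 fold change of -2.36 ± 0.35 (limma, adjusted p = 0.00631). msx1.L stood at 5.87, 5.46, 5.54, 8.52 and 6.66 RPKM in dorsal and 59.4, 25.9, 11.8, 39.7 and 21.5 in ventral half-embryos, which gave a log2 fold change of -2.04 ± 0.35 (limma, adjusted p = 0.017). It followed its S copy, with ventral half-embryos 1 highest and ventral half-embryos 3 lowest in both.

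The less abundant msx2 copies differed in the same direction. msx2.L stood at 2.03, 2.33, 2.10, 1.86 and 1.39 RPKM in dorsal and 12.7, 7.67, 4.55, 10.6 and 4.32 in ventral half-embryos, and msx2.S at 1.46, 1.78, 2.18, 1.79 and 2.17 and 8.68, 5.02, 3.59, 6.29 and 3.55. Neither overlapped between the half-embryos, and their log2 fold changes were -1.69 ± 0.29 (limma, adjusted p = 0.0152) and -1.26 ± 0.24 (limma, adjusted p = 0.0364). Over the 8 members the median log2 fold change was -1.09, beside -0.02 over all rows tested.

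Within pairs of the same number the ventral to dorsal ratio of the VENTX matches was narrow, with medians of 1.72 to 1.94 and single ratios of 1.13 to 2.24. That of the msx rows was wide: the median was 4.66 for msx1.L (2.13 to 10.1), 5.09 for msx1.S (2.19 to 15.0), 3.29 for msx2.L and 2.83 for msx2.S. In pairs 1, 2 and 4 every msx ratio exceeded every VENTX ratio. The ratio of msx2.S was 1.64 in pair 3, within the VENTX range of that pair, and 1.64 in pair 5, below it. In the fit without a block on the pair number, the dorsal calls depended on single libraries. The fit with the block was not rerun with libraries left out. Leaving out any of 6 libraries moved Xelaev18034617m to adjusted p = 0.0557 to 0.0757, any of 5 moved msx1.L to 0.0518 to 0.0644, any of 3 moved msx2.L to 0.0528 to 0.0567, and any of 8 moved msx2.S to 0.0525 to 0.116. The calls of Xelaev18036903m and msx1.S held without any 1 library. The test on recovered reads (voom) also lost msx1.L (adjusted p = 0.0671) and msx2.S (0.0598).

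**Figure D2:**
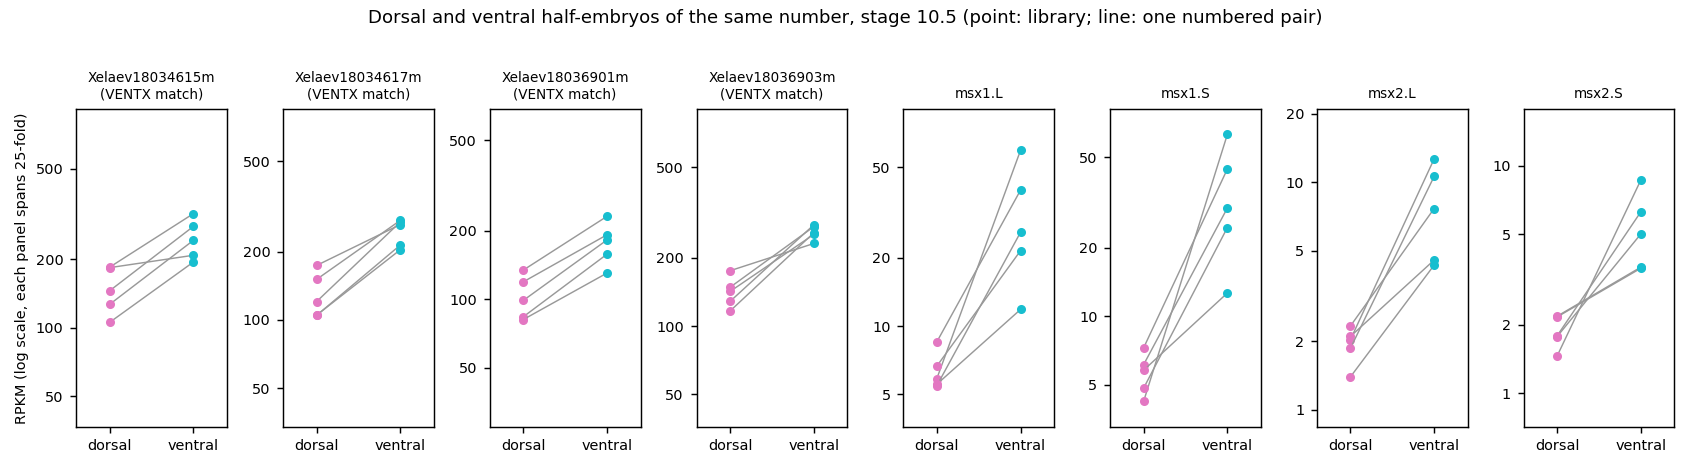
RPKM of each row in the 5 dorsal and 5 ventral half-embryo libraries, on a log axis; lines join half-embryos with the same number. Every line rises from dorsal to ventral, by 1.13 to 2.24 times in the VENTX panels and by 1.64 to 15.0 times in the msx panels.

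The beta-catenin morpholino asks what happens to the repressors when the organizer does not form. None of the 8 members was called by limma, while 7.15% of the 18834 rows tested were, and 1 member passed at an unadjusted p below 0.05 (21.8% of rows) and 0 were called with voom. Xelaev18034617m stood at 138, 209 and 212 RPKM in bCatMO 1 to 3 and 97.7, 166 and 167 in controls 1 to 3. It was higher in all 3 within-batch pairs, although the ranges overlap, with a log2 fold change of 0.39 ± 0.15 (limma, adjusted p = 0.144) and a 95% interval of 0.07 to 0.71. msx1.S stood at 6.89, 9.30 and 5.29 RPKM and 5.25, 14.3 and 9.03 in the same libraries, with an interval of -1.13 to 0.49. The intervals of the other 3 VENTX matches were -0.11 to 0.63, -0.22 to 0.40 and -0.03 to 0.64, so a change as large as those under the other treatments lay outside them. In the same comparison 29 of 35 rows of the organizer list were called lower and 0 higher. A list of BMP feedback and immediate target genes had 6 of 31 rows called higher and 1 lower, led in the higher direction by foxi1.S, an ectodermal forkhead factor (1.17 ± 0.28 (limma, adjusted p = 0.0279)), and the BMP pseudoreceptor bambi.L (1.11 ± 0.25 (limma, adjusted p = 0.0193)).

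In LiCl embryos the 4 VENTX matches were called lower, msx2.S was called higher and the other 3 msx rows were not called, against 14.2% of rows called in either direction. Of all rows called, 26.8% were higher in LiCl, and 51.4% under median-of-ratios scaling, while the member calls were the same under both. Xelaev18034617m stood at 37.2 and 68.1 RPKM in the LiCl libraries of batches 1 and 3 and 97.7 and 167 in their controls, a log2 fold change of -1.38 ± 0.17 (limma, adjusted p = 0.000754). Xelaev18034615m stood at 33.2 and 52.6 RPKM against 104 and 146, a log2 fold change of -1.60 ± 0.20 (limma, adjusted p = 0.000712). Both fell in each pair with no overlap. The other matches changed by -1.06 ± 0.16 (limma, adjusted p = 0.00202) for Xelaev18036901m and -0.997 ± 0.18 (limma, adjusted p = 0.00478) for Xelaev18036903m, and the last of these was not called without LiCl 1 (adjusted p = 0.0566).

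The msx2.S row, by contrast, stood at 3.40 and 4.17 RPKM in LiCl and 1.35 and 1.43 in the controls of batches 1 and 3. Both LiCl libraries were above all 3 controls of the batches 1 to 3, and the log2 fold change was 1.13 ± 0.19 (limma, adjusted p = 0.00287). The call was lost without LiCl 2 (adjusted p = 0.053) and with no batch term (log2 fold change 0.48, adjusted p = 0.692), since controls 4 to 6 lie at 2.53 to 5.40 RPKM. The L copy did not share it: msx2.L stood at 0.999 and 0.828 RPKM and 0.805 and 1.57, with a log2 fold change of -0.34 ± 0.27 (limma, adjusted p = 0.436). The msx1 rows stood at 6.52 and 8.99 and 7.26 and 11.4 RPKM in LiCl and at 5.45 and 9.14 and 5.25 and 9.03 in the controls, L copy first. Neither was called, with 95% intervals of -0.71 to 0.73 and -0.67 to 1.21.

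Siamois mRNA was followed by lower VENTX levels too, with 4 of 8 members called lower against a background of 1.83% called lower. Xelaev18034615m stood at 31.4 and 47.6 RPKM in Sia 1 and 2 and 124 and 146 in controls 2 and 3, a log2 fold change of -1.75 ± 0.20 (limma, adjusted p = 0.00016). Xelaev18036901m stood at 27.5 and 41.0 against 79.9 and 97.2 (-1.34 ± 0.16 (limma, adjusted p = 0.000327)), and Xelaev18036903m at 71.2 and 101 against 184 and 210.0 (-1.16 ± 0.18 (limma, adjusted p = 0.00215)). None of these ranges overlap. The last was not called without Sia 1 (adjusted p = 0.0604). The msx rows had lower values in both pairs and none was called: the log2 fold changes were -1.24 ± 0.33 for msx1.L (adjusted p = 0.059, limma), -1.19 ± 0.43 for msx1.S (0.177), -0.82 ± 0.27 for msx2.L (0.131) and -0.62 ± 0.19 for msx2.S (0.0934). Fitted with the controls alone, which leaves 1 residual degree of freedom, msx1.L and msx1.S were called (adjusted p = 0.00103 and 0.00226), where 2.22% of rows were called lower. msx1.S stood at 4.64 and 3.87 RPKM against 14.3 and 9.03 in its controls. None of the 8 members, called or not, overlapped between Sia and controls 2 and 3. How many of all rows separate in this way was not counted. With 2 libraries on each side unchanged rows can separate too, so the lack of overlap adds nothing to the uncalled msx rows.

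All 8 members were called lower in Wnt8-labelled embryos, in a comparison that called only 0.265% of rows lower. Xelaev18034617m stood at 53.7, 59.6 and 39.1 RPKM in Wnt8-labelled 1 to 3 and 154, 177 and 167 in controls 4 to 6, without overlap. Its means were 50.8 ± 10.6 (SD, n = 3) and 166 ± 11.9 (SD, n = 3), and the log2 fold change was -1.72 ± 0.15 (limma, adjusted p = 0.00076). msx1.S stood at 7.42, 7.27 and 2.78 RPKM against 33.2, 27.8 and 31.9, a log2 fold change of -2.42 ± 0.37 (limma, adjusted p = 0.014). The other log2 fold changes were -1.67 ± 0.17, -1.44 ± 0.14 and -1.54 ± 0.16 for the other VENTX matches (limma, adjusted p = 0.00159 each), -1.78 ± 0.28 for msx1.L (0.0175), -1.45 ± 0.23 for msx2.L (0.0175) and -1.16 ± 0.16 for msx2.S (0.00708).

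The msx calls in Wnt8-labelled embryos were lost without single libraries and the VENTX calls were not. Leaving out any of 5 libraries moved msx1.L to adjusted p = 0.0605 to 0.140 and msx1.S to 0.057 to 0.116, any of 6 moved msx2.L to 0.0552 to 0.134, and leaving out Wnt8-labelled 3 moved msx2.S to 0.0673. The 4 VENTX calls held without any 1 library. The msx levels of the controls also differed between the batches: msx1.S stood at 5.25 to 14.3 RPKM in controls 1 to 3 and at 27.8 to 33.2 in controls 4 to 6, and msx1.L at 5.45 to 11.2 and 20.4 to 29.5. The Wnt8-labelled values of msx1.S (2.78 to 7.42 RPKM) fall within or below those of controls 1 to 3. Without the batch term, so that all 6 controls are the reference, 2 of 8 members were called, where 0.0212% of rows were called lower. Both were VENTX matches, and Xelaev18034615m (adjusted p = 0.0598) and Xelaev18036901m (0.0668) were lost with the msx rows. The part of the batch in the msx results was not tested. The VENTX matches of these libraries lay below all 6 controls.

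Cerberus mRNA was followed by lower levels of all 8 members, where 2.90% of rows were called lower. Xelaev18034617m stood at 45.5, 85.7 and 65.1 RPKM in Cer 1 to 3 and 154, 177 and 167 in controls 4 to 6, a log2 fold change of -1.38 ± 0.15 (limma, adjusted p = 9.87e-05). msx1.S stood at 2.16, 4.73 and 6.27 RPKM against 33.2, 27.8 and 31.9, and the log2 fold change of -2.79 ± 0.37 (limma, adjusted p = 0.000503) was a 6.89-fold lower level on that scale. msx1.L stood at 3.78, 5.98 and 8.64 RPKM against 29.5, 20.4 and 22.7 (-1.95 ± 0.28 (limma, adjusted p = 0.00102)). These ranges do not overlap. Those of msx2.S do: it stood at 2.54, 0.788 and 1.01 RPKM in Cer and 5.40, 2.53 and 4.42 in the controls (-1.30 ± 0.16 (limma, adjusted p = 0.000265)), and Cer 1 lay level with control 5.

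The remaining members changed in Cer by -1.47 ± 0.17 (limma, adjusted p = 0.000154) for Xelaev18034615m, -1.32 ± 0.14 (limma, adjusted p = 9.54e-05) for Xelaev18036901m, -1.36 ± 0.16 (limma, adjusted p = 0.000152) for Xelaev18036903m and -1.70 ± 0.23 (limma, adjusted p = 0.000583) for msx2.L. No Cer call was lost by leaving out any 1 library. Without the batch term the 4 VENTX calls held and the 4 msx calls did not, where 1.22% of rows were called lower (adjusted p = 0.278, 0.078, 0.236 and 0.777 for msx1.L, msx1.S, msx2.L and msx2.S). The members' median log2 fold changes were -0.67 in LiCl, -1.21 in Sia, -1.60 in Wnt8-labelled and -1.43 in Cer embryos, beside -0.06, -0.02, 0.00 and 0.00 over all rows. These do not rank the treatments. LiCl and Sia were set against controls 1 to 3 (msx1.S 5.25 to 14.3 RPKM), Wnt8-labelled and Cer against controls 4 to 6 (27.8 to 33.2). The part of the control level in these medians, and in which msx rows were called, was not tested.

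**Figure D3:**
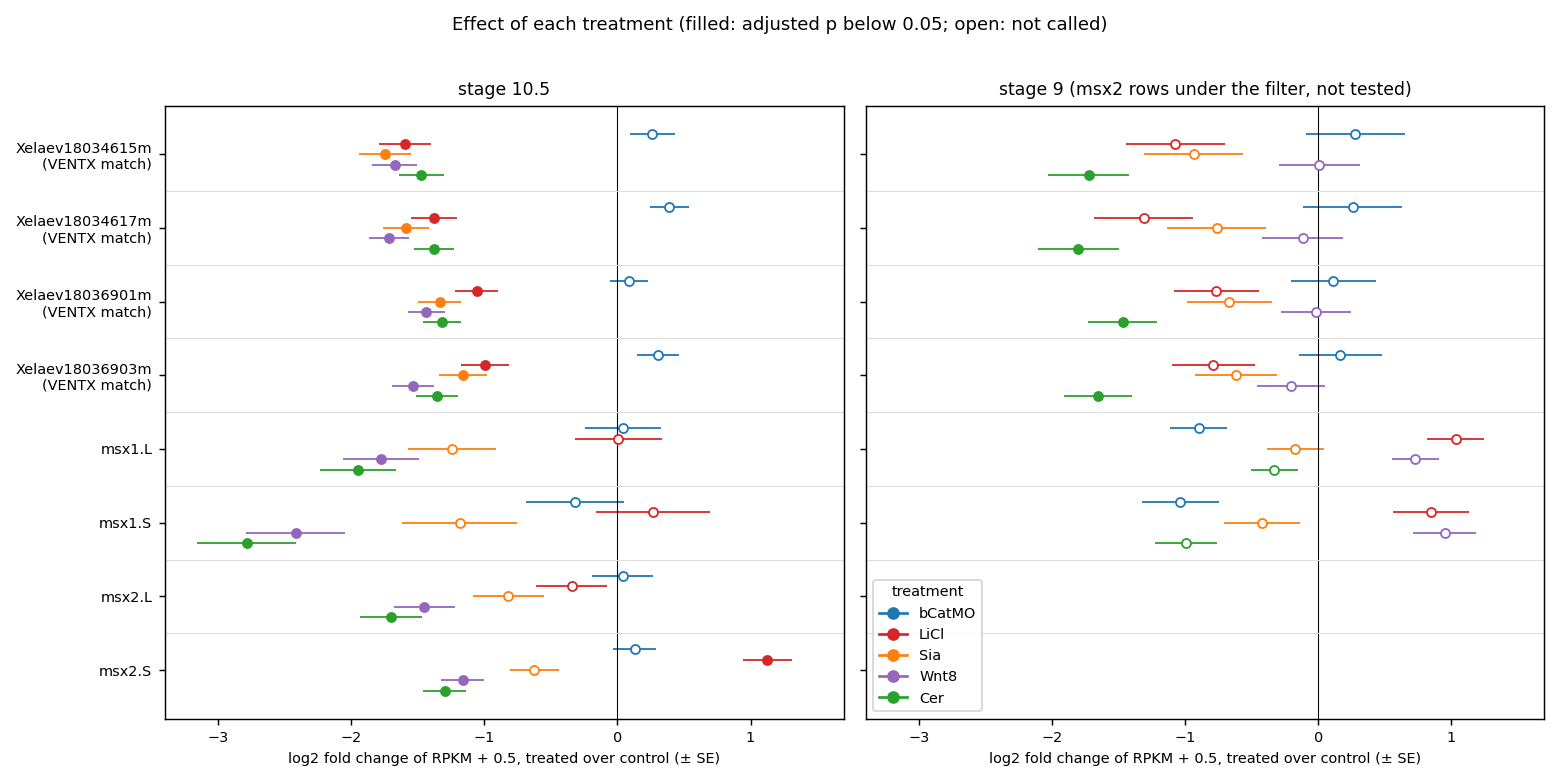
Log2 fold change, treated over control, of each row under the 5 treatments at stage 10.5 (left) and stage 9 (right), with bars of 1 SE; filled points were called at an adjusted p below 0.05, and Wnt8 stands for the Wnt8-labelled libraries. At stage 10.5 the LiCl points of the VENTX matches lie at -0.997 or below and that of msx2.S at 1.13.

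Treated groups were also contrasted within the same fits, in which the controls help to set the batch levels. Between LiCl and bCatMO, which drive the beta-catenin pathway in opposite directions, the VENTX matches were called lower in LiCl (-1.86 ± 0.20, -1.77 ± 0.17, -1.15 ± 0.16 and -1.30 ± 0.18, limma adjusted p = 6.74e-05, 3.65e-05, 0.0006 and 0.00048) and msx2.S higher (0.998 ± 0.19 (limma, adjusted p = 0.00331)), 5 of 8 where 17.8% of rows were called. The msx2.S call was lost without LiCl 2 (adjusted p = 0.0765). Between LiCl and Sia 1 of 8 was called, msx2.S, 3.37 times higher in LiCl (1.75 ± 0.21 (limma, adjusted p = 0.000458)), where 5.85% of rows were called. The contrast rests on 3.40 and 4.17 RPKM in LiCl against 1.12 and 0.715 in Sia, and in batch 3, the only one they share, it was 4.17 and 0.715. Between Wnt8-labelled and Cer embryos none of the 8 was called by limma or voom, 1 passed at an unadjusted p below 0.05 (11.8% of rows), and 4.00% of rows were called. There the 95% intervals were -0.66 to -0.01 for Xelaev18034617m and -0.44 to 1.18 for msx1.S. Without Cer 1, Xelaev18034617m was called lower in Wnt8-labelled embryos (adjusted p = 0.0224).

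At stage 9, before gastrulation, the VENTX matches were already abundant and the msx rows scarce. In the 5 controls the VENTX matches ranged over 43.9 to 108, 60.9 to 125, 53.8 to 85.8 and 66.2 to 139 RPKM in the order above. The msx1 rows ranged over 0.862 to 2.21 (L) and 1.64 to 5.86 RPKM (S). Over all 17 libraries msx1.L drew only 22 to 198 reads and reached 1 RPKM in 10 libraries. The msx2 rows reached at most 0.827 RPKM in any of the 17 libraries, did not pass the filter and were not tested. The tables of the 2 stages were normalized separately, so levels were not tested between them.

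Cerberus was the treatment with members called against controls at stage 9. The 4 VENTX matches were called lower, while 0.210% of the 18530 rows tested were called lower. Xelaev18034617m stood at 11.7, 36.4 and 34.1 RPKM in Cer 1 to 3 and 95.8, 72.9 and 92.8 in controls 1 to 3, and Xelaev18036903m at 17.8, 32.2 and 36.3 and 103, 66.2 and 98.8. All Cer libraries were below all 5 controls in both. The log2 fold changes were -1.80 ± 0.30 (limma, adjusted p = 0.03) and -1.66 ± 0.25 (limma, adjusted p = 0.0186), and those of Xelaev18034615m and Xelaev18036901m were -1.72 ± 0.30 (limma, adjusted p = 0.0396) and -1.47 ± 0.26 (limma, adjusted p = 0.0396). Each call was lost without control 1, control 3 or Cer 3, and Xelaev18034615m also without control 2 and Xelaev18036901m without Cer 1 (adjusted p = 0.0512 to 0.271 over these). Cer 1 had the lowest VENTX level of the 17 libraries. The msx1 rows were not called (-0.33 ± 0.17 (limma, adjusted p = 1) for msx1.L and -0.99 ± 0.23 (limma, adjusted p = 0.169) for msx1.S), and msx1.S was called with voom (adjusted p = 0.0436).

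No member was called by limma or voom in bCatMO, LiCl, Sia or Wnt8-labelled embryos of stage 9, where 0.696%, 0.448%, 0.281% and 0.108% of rows were called. At an unadjusted p below 0.05 the members that passed numbered 2, 6, 1 and 2, where 5.91%, 7.74%, 3.22% and 8.49% of rows passed. In LiCl Xelaev18034617m stood at 47.7 and 25.5 RPKM against 125 and 60.9 (-1.31 ± 0.37 (limma, adjusted p = 0.245)), while msx1.L stood at 3.19 and 3.15 against 1.69 and 0.970 (1.03 ± 0.21 (limma, adjusted p = 0.0726)) and msx1.S at 7.71 and 4.88 against 5.86 and 1.64 (0.85 ± 0.29 (limma, adjusted p = 0.402)). The VENTX values were thus low and those of msx1.L high in the same libraries, and control 4 lay between the LiCl values of msx1.S. Fitted with the controls alone, which leaves 1 residual degree of freedom, all 6 were called, and 3.97% of the 16940 rows tested.

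The bCatMO libraries held the 2 lowest msx1.L values of stage 9. That row stood at 0.595 and 0.348 RPKM against 1.69 and 0.970 in controls 4 and 5, and msx1.S at 1.89 and 0.860 against 5.86 and 1.64. The log2 fold changes were -0.90 ± 0.21 (limma, adjusted p = 0.125) and -1.03 ± 0.29 (limma, adjusted p = 0.238), not called. In Sia libraries Xelaev18034617m stood at 59.4 and 44.3 RPKM and its log2 fold change was -0.76 ± 0.37 (limma, adjusted p = 1). Wnt8-labelled libraries held 76.4 to 86.5 RPKM of Xelaev18034617m, within the range of controls 1 to 3, and 6.74, 5.04 and 6.08 RPKM of msx1.S, above all 3 of 4.52, 2.00 and 2.42, with log2 fold changes of -0.12 ± 0.30 (limma, adjusted p = 0.915) and 0.95 ± 0.23 (limma, adjusted p = 0.327).

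Contrasts between treated groups of stage 9 called more members. Between LiCl and bCatMO both msx1 rows were called higher in LiCl (1.93 ± 0.21 (limma, adjusted p = 0.000678) and 1.88 ± 0.29 (limma, adjusted p = 0.00573) for L and S), where 0.955% of rows were called higher. The 4 VENTX values were lower in LiCl (-1.35 ± 0.37, -1.57 ± 0.37, -0.88 ± 0.32 and -0.95 ± 0.31) and not called. The msx1.S call was lost without bCatMO 1 or LiCl 2 (adjusted p = 0.0918 to 0.139). Between LiCl and Sia msx1.L was called higher in LiCl (1.20 ± 0.21 (limma, adjusted p = 0.028)), 1 of 6 where 0.124% of rows were called higher, and the call was lost without LiCl 2 or Sia 2 (0.377 to 0.476). Between Wnt8-labelled and Cer embryos all 6 were called higher in Wnt8-labelled embryos, where 0.372% of rows were called higher. Their log2 fold changes were 1.73 ± 0.30, 1.68 ± 0.30, 1.45 ± 0.26 and 1.45 ± 0.25 for the VENTX matches and 1.06 ± 0.17 and 1.94 ± 0.23 for msx1.L and msx1.S (limma, adjusted p = 0.0332, 0.0369, 0.0369, 0.0326, 0.0237 and 0.00364). Leaving out Cer 3 or any Wnt8-labelled library ended each of the VENTX calls, any of the 6 libraries ended that of msx1.L, and the msx1.S call held.

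**Figure D4:**
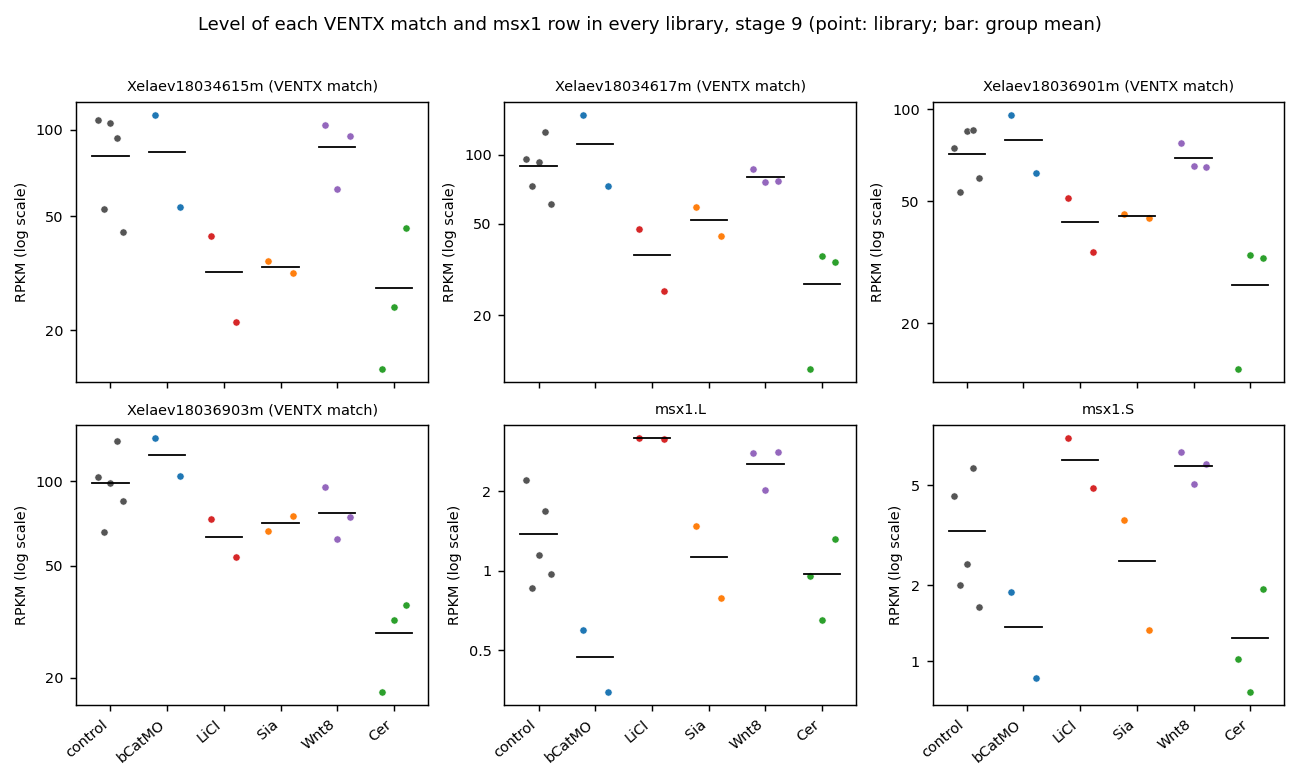
RPKM of the 6 rows tested at stage 9 in every library, on a log axis, 1 panel per row; points are libraries, bars are group means, and Wnt8 stands for the Wnt8-labelled libraries. The Cer points of Xelaev18036903m (17.8 to 36.3 RPKM) lie below all others, and the LiCl points of msx1.L (3.15 to 3.19 RPKM) lie above all others.

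Whether an effect differed between the stages was tested for the 6 rows measured at both. Of 30 differences 4 were called, all in msx1. Under the Wnt8 label the effect on msx1.S was -3.37 ± 0.44 (log2, stage 10.5 minus stage 9) (adjusted p = 0.000789 over 17746 rows, from the limma estimates), and that on msx1.L -2.51 ± 0.33 (0.00101), where 0.175% of rows were called. The signs were opposite: 0.95 ± 0.23 at stage 9 and -2.42 ± 0.37 at stage 10.5 for msx1.S. Under Cerberus, where 1.26% of rows were called, the differences were -1.79 ± 0.44 for msx1.S (adjusted p = 0.0461) and -1.62 ± 0.33 for msx1.L (0.012). None of the 4 was called in fits without the batch term. The VENTX matches had Wnt8-labelled differences of -1.68 ± 0.35, -1.60 ± 0.34, -1.42 ± 0.30 and -1.33 ± 0.30, which were not called (limma-based adjusted p = 0.0778, 0.0933, 0.0791 and 0.102). For bCatMO, LiCl and Sia, where 0.175%, 3.29% and 0.355% of rows were called, no member's difference was called, and for msx1.L in LiCl it was -1.02 ± 0.39 (adjusted p = 0.157).

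Other genes of the BMP pathway gave the setting of these values. All list counts of half-embryos come from the fit without a block on the pair number. Of 18834 rows tested at stage 10.5, 1346 were called in bCatMO, 2668 in LiCl, 784 in Sia, 87 in Wnt8-labelled and 856 in Cer embryos. Of these rows 27.6%, 26.8%, 56.1%, 42.5% and 36.2% were higher. Between half-embryos 125 of 18448 rows were called, and 80.8% of them were higher dorsally. In dorsal against ventral half-embryos 6 of 31 tested rows of the BMP feedback and target list were called lower dorsally and 0 higher, with a median log2 fold change of -0.51 beside -0.02 over all rows. They were led by the secreted BMP feedback inhibitor sizzled, szl.L (-3.93 ± 0.52 (limma, adjusted p = 0.00217)) and szl.S (-3.46 ± 0.43 (limma, adjusted p = 0.00125)), and by bambi.L (-2.54 ± 0.26 (limma, adjusted p = 0.000301)). The counts of higher and lower rows of that list were 5 and 8 in LiCl, 3 and 10 in Sia, 0 and 7 in Wnt8-labelled and 3 and 14 in Cer embryos of stage 10.5. Its median log2 fold changes were -0.24, -0.38, -0.50 and -0.52 in these treatments, whose higher rows are not named here. In each of these bambi.L or sizzled was among the lower rows: bambi.L changed by -2.03 ± 0.28 (limma, adjusted p = 0.00126) in LiCl, -2.33 ± 0.28 (limma, adjusted p = 0.00032) in Sia and -2.11 ± 0.25 (limma, adjusted p = 0.00328) in Wnt8-labelled embryos, and szl.L by -2.69 ± 0.31 (limma, adjusted p = 0.00018) in Cer embryos. At stage 9 4 of 25 rows were called lower in Cer embryos and none in the other 4 treatments: szl.L (-2.08 ± 0.36 (limma, adjusted p = 0.0332)), szl.S (-1.76 ± 0.32 (limma, adjusted p = 0.0428)), an ID3 match, Xelaev18012086m (-1.73 ± 0.29 (limma, adjusted p = 0.0307)), which encodes an inhibitor of basic helix-loop-helix factors, and bambi.L (-1.06 ± 0.17 (limma, adjusted p = 0.0288)).

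The organizer list, genes that the ventx proteins are known to repress or that were taken to oppose ventral fate, moved in 2 ways beside the low VENTX levels. It includes the BMP-like ligand admp, whose rows are also counted in the list of BMP ligands below. At stage 10.5 25 of 35 tested rows were called higher in LiCl, 21 in Sia and 10 in Wnt8-labelled embryos, with none lower, and in Sia the count includes the injected siamois row. The medians were 1.53, 1.07 and 0.82. In Cer embryos 23 rows were called lower and 1 higher, the higher one being the injected cer1.S, and the median was -1.23. Lowest were the homeobox genes hhex.L (-3.73 ± 0.20 (limma, adjusted p = 4.31e-07)) and hhex.S (-3.66 ± 0.18 (limma, adjusted p = 2.65e-07)) and the other Cerberus copy, cer1.L (-4.47 ± 0.29 (limma, adjusted p = 2e-06)). VENTX levels were thus low with the organizer list high in LiCl, Sia and Wnt8-labelled embryos and low with it low in Cer embryos. In bCatMO embryos, where the list's median was lowest (-2.98), no VENTX match was called, while 7.15% of all rows were. The VENTX matches had log2 fold changes of 0.26, 0.39, 0.09 and 0.30 there, so the lack of a call does not show unchanged levels. In Cer embryos 22 of 35 rows of the ventrolateral and posterior mesoderm list were also called lower, against 4 lower and 13 higher in LiCl.

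Of the BMP ligands, receptors and Smads, in the half-embryos 2 of 26 rows were called higher on the dorsal side and 0 lower, the former both copies of admp, a dorsal BMP-like ligand (admp.S 4.38 ± 0.30 (limma, adjusted p = 7.62e-06), admp.L 3.77 ± 0.30 (limma, adjusted p = 3.39e-05)). In Cer embryos 2 of 27 were called lower, again the admp copies. The counts of higher and lower rows of this list were 2 and 6 in bCatMO, 3 and 4 in LiCl, 4 and 3 in Sia and 1 and 0 in Wnt8-labelled embryos of stage 10.5. Of all rows tested 7.15% were called in bCatMO and 14.2% in LiCl. Whether the counts of this list and those below exceed the shares of all rows called was not tested. The ligand bmp4.L was called lower in Sia embryos (-1.01 ± 0.15 (limma, adjusted p = 0.00149)). The neural plate border and non-neural ectoderm list, to which later msx expression belongs, had 8 of 33 rows called lower and 4 higher on the dorsal side. It had 17 of 35 lower and 1 higher in Wnt8-labelled and 13 lower and 2 higher in Cer embryos of stage 10.5, 11 lower and 9 higher in LiCl, 14 lower and 8 higher in Sia and 5 lower and 7 higher in bCatMO embryos. Of other homeobox genes of the gastrula 4 of 19 were called higher and 0 lower on the dorsal side, among them nkx6-2.L (2.25 ± 0.36 (limma, adjusted p = 0.0108)). That list had 9 of 22 rows called higher and 0 lower in LiCl, 4 and 0 in Sia, 1 and 0 in Wnt8-labelled, 0 and 5 in bCatMO and 8 and 9 in Cer embryos of stage 10.5.

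Across the 29 libraries of stage 10.5, the rows whose log2 level most resembled a VENTX match were mostly the other VENTX matches. Pearson's r between them ran from 0.869 to 0.956 in 6 pairs, between msx rows from 0.801 to 0.969 in 6 pairs, and between a VENTX match and an msx row from 0.482 to 0.775 in 16 pairs. Over the 8 group means the ranges were 0.882 to 0.987, 0.723 to 0.961 and 0.501 to 0.923, so that those between and within the families overlap. These are descriptions: the libraries share treatments, batches and controls. How reads that match several ventx copies were counted is not known, and their part in r between the VENTX matches was not tested. Outside the members, the 5 most similar of 19460 rows held Xelaev18031635m, a TFAP2A match, for Xelaev18034615m (r = 0.885), Xelaev18034617m (0.921) and Xelaev18036901m (0.869). They also held a KLF2 match, Xelaev18001123m, for Xelaev18034617m (0.911) and Xelaev18036901m (0.863), wnt8a.L for Xelaev18034615m (0.87), and grhl3.1 (0.886) and gadd45a.L (0.871) for Xelaev18036903m. The same TFAP2A match was among the 5 for msx1.L (0.836) and msx2.L (0.821). Another TFAP2A match, Xelaev18033390m, was among those of msx1.L (0.870), msx1.S (0.832) and msx2.L (0.810). They held foxn4.L for msx1.L (0.839) and msx1.S (0.822), and for msx2.S the Wnt receptor genes fzd10.L (0.762) and fzd10.S (0.751). Ranked over the 8 group means instead, between 0 and 3 of the 5 rows were shared.

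Ratios of 2 rows within a library varied more between batches than between groups for the VENTX matches, and more between groups for msx1. The msx rows are named as L and S copies. Whether the VENTX matches set against each other are copies of 1 gene or different ventx genes is not known. The ratio of Xelaev18034615m to Xelaev18034617m within a library was 1.38 to 1.44 in the 3 libraries of batch 6, 1.13 to 1.26 in batch 4 and 0.655 to 0.742 in batch 2 of stage 10.5, whatever the treatment. Batch held 94.6% of the variance of its log2 over the 19 whole-embryo libraries and group 26.9%, and at stage 9 the shares were 86.8% and 39.4%. For Xelaev18036901m over Xelaev18036903m they were 96.4% and 68.2% at stage 10.5 and 84.9% and 69.2% at stage 9. Batches and groups overlap in part, so the 2 shares do not add up. Treated libraries and their controls are compared within batches in the fits above.

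For msx1 the ratio of L to S was 1.27 to 1.75 in Cer and 0.711 to 1.04 in control libraries of stage 10.5, without overlap, and 0.681 to 0.937 and 0.288 to 0.592 at stage 9. The S copy thus had the larger share in control libraries of stage 9 and the copies were close at stage 10.5. The high ratio of stage 10.5 was not particular to Cer. Wnt8-labelled libraries, at 1.08 to 1.64, also lay above the controls and overlapped Cer. The ranges of bCatMO (0.892 to 1.62) and dorsal half-embryos (0.893 to 1.39) reached Cer values, and those of LiCl (0.792 to 0.899) and Sia (0.833 to 0.859) lay within the controls. At stage 9 the Wnt8-labelled ratios (0.402 to 0.465) lay within the controls. Group held 65.0% of the variance at stage 10.5 and 66.9% at stage 9, and batch 16.8% and 36.7%. The msx2 ratio was 0.198 and 0.294 in the LiCl libraries of stage 10.5, the lowest of the 19, while the others began at 0.403. The msx2.S difference seen above enters both ratios. The ratio was 0.596 in control 1 and 0.294 in LiCl of batch 1. In batch 3 it was 1.10 in the control and 0.198 in LiCl, and there msx2.L was lower in LiCl as well. For msx2 group held 59.1% and batch 25.5% at stage 10.5, and 38.8% and 44.4% at stage 9, where the ratios rest on levels under 1 RPKM. All of these ratios are descriptions, with no test.

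**Figure D5:**
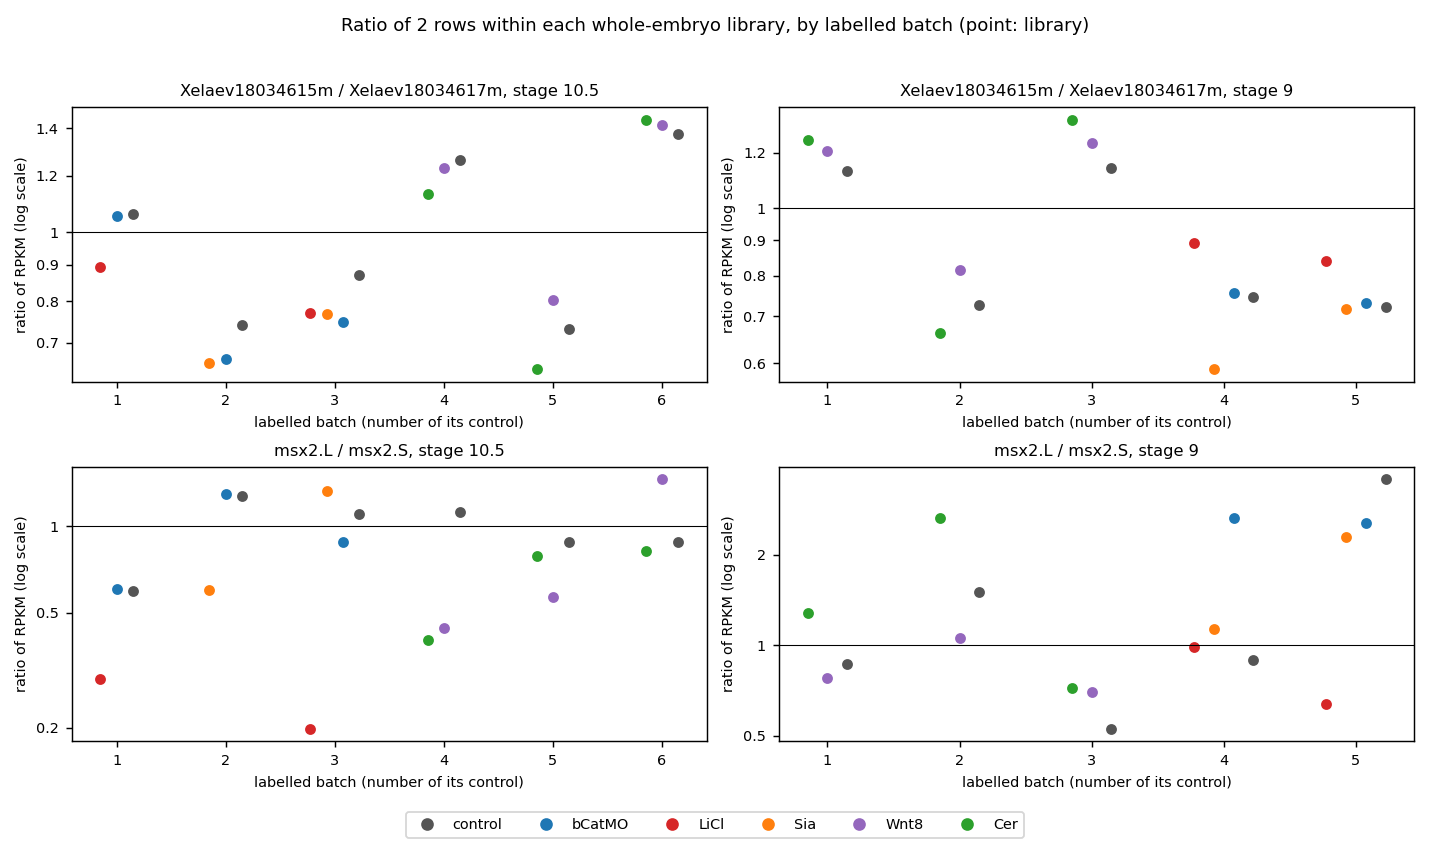
Ratio of Xelaev18034615m to Xelaev18034617m (top) and of msx2.L to msx2.S (bottom) in each whole-embryo library, on a log axis, by labelled batch, at stage 10.5 (left) and stage 9 (right); points are libraries coloured by group. In the top left panel the points of a batch lie together, at 1.38 to 1.44 in batch 6, and in the bottom left panel the LiCl points are lowest, at 0.198 and 0.294.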

How the data were processed

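Libraries were grouped and tied to batches by the labels. The column header taken for LiCl 2 of stage 10.5 gives a LiCl number that no sample has. That column was assigned by the batch that the sample's label names and by elimination. The values are RPKM as the authors deposited them, per the file headers. The submitters' processing notes name TopHat2 2.09 and DESeq without a role, and nothing used here states the genome build, the annotation, how reads were counted or whether strand was used. Whole reads were recovered from the RPKM steps (100.0% of 34080 and 30836 rows within 0.005 of a whole read), which gave the depths and the voom alternative. Rows with RPKM of at least 1 in at least 2 libraries were tested as log2(RPKM + 0.5) with limma 3.58.1 (R 4.3.3; lmFit, eBayes with trend), two-sided. P-values were adjusted by Benjamini-Hochberg over all rows tested, and rows were called at an adjusted p below 0.05. The log scale understates changes of low rows such as msx2. All whole-embryo libraries of a stage entered 1 fit with batch as a term, and half-embryos their own fit without a block. Same-numbered half-embryos deviated together (r = 0.901, 0.861, 0.894, 0.54 and 0.831), so the numbers were taken to pair them. The errors, adjusted p-values and list counts of half-embryos still come from the fit without a block, which leaves this pairing out. The blocked values are given beside the member calls that they change, and list rows were not counted with the block. Effects at the 2 stages were compared by the difference of log2 fold changes over its standard error. The fit was tried on simulated data only for bCatMO and the half-embryos of stage 10.5. Those data held no batch effect and no pairing, so they do not test how the fits handle either. Named were all members, up to 4 called genes of largest change per list, and the 5 most similar rows per member. A row with a gene symbol was placed in a list by its symbol alone. The members and lists were chosen with earlier results of these data known. The authors' column of averages, 1 per stage, was not used, and 6 rows with repeated identifiers were dropped at stage 10.5. Alternatives were other pseudocounts, scaling, filter and fit, and each library left out.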

Additional observations from a re-analysis of the deposited data

Results flagged for a closer look

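In control 1 of stage 10.5, Xelaev18034617m stood at 97.7 RPKM, far below the other 5 controls (154 to 177 RPKM). This was 1 of 32 groups of 4 to 10 libraries examined for a far value, and chance flags about 1 in 20 groups. Control 1 also had the lowest sizzled level of the controls. In its batch bCatMO 1 (138 RPKM of Xelaev18034617m) and LiCl 1 (37.2 RPKM) were the lowest of their groups as well.

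Under the Wnt8 label the effect on msx1.S at stage 10.5 minus that at stage 9 was -3.37 on the log2 scale, and that on msx1.L -2.51. Under Cerberus the same differences were -1.79 for msx1.S and -1.62 for msx1.L. These 4 are given because the difference between the 2 stages itself passed its test, out of 30 tested. None of the 4 was called without the batch term, and that of msx1.S under Cerberus was not called with a pseudocount of 0.1. The stage 10.5 batches of these libraries had controls with 27.8 to 33.2 RPKM of msx1.S, against 5.25 to 14.3 RPKM in the other 3 controls, and the part of that level in the differences was not tested.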

How the results depend on the processing

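No called member changed sign under any alternative that was run. Other pseudocounts moved 1 call, the msx1.S stage difference under Cerberus. Of 8 members called in Wnt8-labelled embryos of stage 10.5, 5 remained without the filter on low values, and 2 of 6 in the half-embryos. Without the filter 106 rows in place of 125 were called between the half-embryos. In Wnt8-labelled embryos of stage 10.5, 8 to 131 rows were called over the settings, against 87. With the pair number as a replicate block, 422 in place of 125 rows and 8 in place of 6 members were called between the half-embryos. With no batch block the stage 10.5 counts were 3 in LiCl, 3 in Sia (Xelaev18036903m at adjusted p = 0.0842), 2 in Wnt8-labelled and 4 in Cer embryos, 3 in LiCl against bCatMO and 0 in LiCl against Sia. At stage 9, Cer went from 4 to 0 without the filter, 1 with no block and 0 with its controls alone. Fitting the 2 groups alone gave 1 in bCatMO and 6 in LiCl at stage 9, where 407 and 672 of all rows were called. LiCl against bCatMO gave 4 with voom, 1 with no block and 6 with the 2 groups alone, where 461, 44 and 734 rows were called. LiCl against Sia gave 0 in each of 4 settings: no filter, voom, no block and the 2 groups alone. Over its settings 13 to 156 rows were called. Wnt8-labelled against Cer gave 1 without the filter, 0 with no block and 2 with the 2 groups alone. Over its settings 10 to 141 rows were called. The main fits called 373, 124 and 88 rows in these 3 contrasts. Leaving out each library in turn gave 2 to 6 members between half-embryos, 4 to 5 in LiCl, 3 to 4 in Sia, 4 to 7 in Wnt8-labelled, 8 in Cer and 0 to 1 in Wnt8-labelled against Cer at stage 10.5. At stage 9 it gave 0 to 4 in Cer, 1 to 2 in LiCl against bCatMO, 0 to 1 in LiCl against Sia and 1 to 5 in Wnt8-labelled against Cer. The cause was not tested. Fits with 1 library left in a group take its spread from the other groups. With no batch block the counts of all rows called went from 1346, 2668, 784, 87 and 856 to 166, 146, 263, 8 and 335 in bCatMO, LiCl, Sia, Wnt8-labelled and Cer embryos of stage 10.5. They also went from 3360 to 308 in LiCl against bCatMO and from 1101 to 152 in LiCl against Sia of that stage. At stage 9 the counts of all rows called against controls ranged over settings from 51 to 407, 3 to 672, 5 to 114, 0 to 50 and 8 to 150, against 129, 83, 52, 20 and 74. Depth limits the msx2 rows, with 15 to 177 reads at stage 9, and msx1.L, with 22 to 198 reads at that stage.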
